A study of Homo sapiens with 9 samples.

Results

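The MAP kinase phosphatases of the DUSP family were taken by gene symbol: DUSP1, DUSP2, DUSP4, DUSP5, DUSP6, DUSP7, DUSP8, DUSP9, DUSP10 and DUSP16. All 10 were found once each among the 62700 genes of the count table, and all 10 passed the filter on low counts. PolyA-selected RNA came from 293T cells, a transformed human embryonic kidney line, given 1 of 3 plasmids. The control cells received an empty vector, a second group received CIC::DUX4 with an HA tag, and the third received CIC joined at exon 20 to exon 6 of NUTM1, also with an HA tag and called CIC::NUTM1 here. RNA was taken about 48 hours after transfection, and each group had 3 libraries, with replicates transfected on separate days. Plasmids were carried transiently in 1 established line, and the transcripts of the fused genes were not analysed here. In bulk RNA, a larger share of cells responding and more RNA per responding cell cannot be told apart.

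These enzymes remove phosphate from both the threonine and the tyrosine of the activation loop of a MAP kinase, and so switch it off. DUSP1, DUSP2, DUSP4 and DUSP5 are nuclear and inducible, DUSP6, DUSP7 and DUSP9 are cytoplasmic and prefer ERK, and DUSP8, DUSP10 and DUSP16 prefer JNK and p38. Several of them are induced by the kinase they inactivate and act as negative feedback. CIC (capicua) is a repressor that binds a short octamer of DNA in genes of the receptor tyrosine kinase and ERK pathway, and DUSP4 and DUSP6 are among the genes it is known to repress.

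The start-site sequences of 4 members are shown because they hold the letters of a response element that could be searched for. They are RefSeq sequences (GRCh38.p14), all from the minus strand, with positions counted from the RefSeq start. Windows ran from 250 bases before to 50 bases after the start, and 8 of the 10 members had at least 1 window. DUSP4 and DUSP5 had none and were not searched. In DUSP6 (chr12:89352493-89352701) and DUSP10 (chr1:221742051-221742080) capitals mark the capicua octamer, searched on both strands as TCAATGAA, TCAATGGA, TGAATGAA or TGAATGGA. In DUSP1 (chr5:172771273-172771360) and DUSP8 (chr11:1572308-1572419) capitals mark the cyclic AMP response element TGACGTCA.
DUSP6: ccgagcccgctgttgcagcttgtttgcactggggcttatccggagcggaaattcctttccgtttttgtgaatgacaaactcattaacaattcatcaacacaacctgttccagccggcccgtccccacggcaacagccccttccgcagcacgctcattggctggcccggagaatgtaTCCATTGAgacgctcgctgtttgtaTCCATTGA
DUSP10: gctgctggagaTCAATGAAgccgagtgaat
DUSP1: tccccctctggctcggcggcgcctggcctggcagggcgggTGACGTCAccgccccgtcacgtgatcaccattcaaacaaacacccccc
DUSP8: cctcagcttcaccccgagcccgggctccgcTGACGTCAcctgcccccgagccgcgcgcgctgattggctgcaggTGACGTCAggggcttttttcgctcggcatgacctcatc
DUSP6 held the octamer in 2 places, from -24 to -17 and from 2 to 9, both read on the opposite strand as TCAATGGA. DUSP10 held it once, from 21 to 28, as TCAATGAA. Of all 35116 windows, 3.77% held at least 1 octamer and 0.327% held 2 or more. The cyclic AMP response element lay from -125 to -118 in DUSP1 and from -118 to -111 and -74 to -67 in DUSP8, and was found in 1.85% of all windows. AP-1 sites (TGACTCA or TGAGTCA, in 4.95% of windows) and the serum response element (1.29%) were not found in the windows of those 8 members. A match describes these letters in these windows only.

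Total counts lay between 16970771 and 33655445 per library. Libraries of 1 group differed by more than counting noise (chi-square over its degrees of freedom 6.10 to 10.6), so none was treated as a copy of another. All 7 markers of 293T cells were detected, at a summed 1224.5 to 1517 CPM, that is, read counts made comparable by library size, in every library. NEFL and NEFM fell with both fusions, KRT8 rose with CIC::DUX4, and LHX1 and VIM rose with CIC::NUTM1. The 13 markers of other cell types summed to 33.8 to 43.4 CPM per library, with MYOG at 0 in every library. Of the 7 of these that were tested, PTPRC rose with either fusion (0.0195 CPM in the controls, 0.412 and 0.909 with the fusions), CD14 rose with CIC::NUTM1 (0.143 to 1.19 CPM), and COL1A1 fell with CIC::NUTM1 (33.5 to 26.3 CPM). The part of these markers in the results below was not tested. Replicates were separate transfections of 1 line, so p-values measure the spread between those transfections.

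With CIC::DUX4, 6 of the 10 phosphatases rose against empty vector: DUSP4, DUSP6, DUSP7, DUSP8, DUSP10 and DUSP16. With CIC::NUTM1 the same 6 rose and DUSP1 rose as well, making 7 of 10. No member fell with either fusion. Of all 17576 genes tested, 6.96% rose with CIC::DUX4 and 11.5% with CIC::NUTM1, while 1.27% and 3.83% fell (edgeR quasi-likelihood test, adjusted p under 0.05). The median change of the 10 members on the log2 scale was 0.43 for CIC::DUX4, against -0.0015 over all genes tested, and 0.70 for CIC::NUTM1, against -0.00086. Both comparisons share the empty-vector libraries, and the members were chosen with earlier results of these data known. DESeq2 and limma-trend made the same calls for the members. At an unadjusted edgeR p under 0.05, no member was lower with CIC::DUX4 and 1, DUSP2, was lower with CIC::NUTM1. The shares of all genes above are at the adjusted threshold and cannot be set against these counts.

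**Figure D1:**
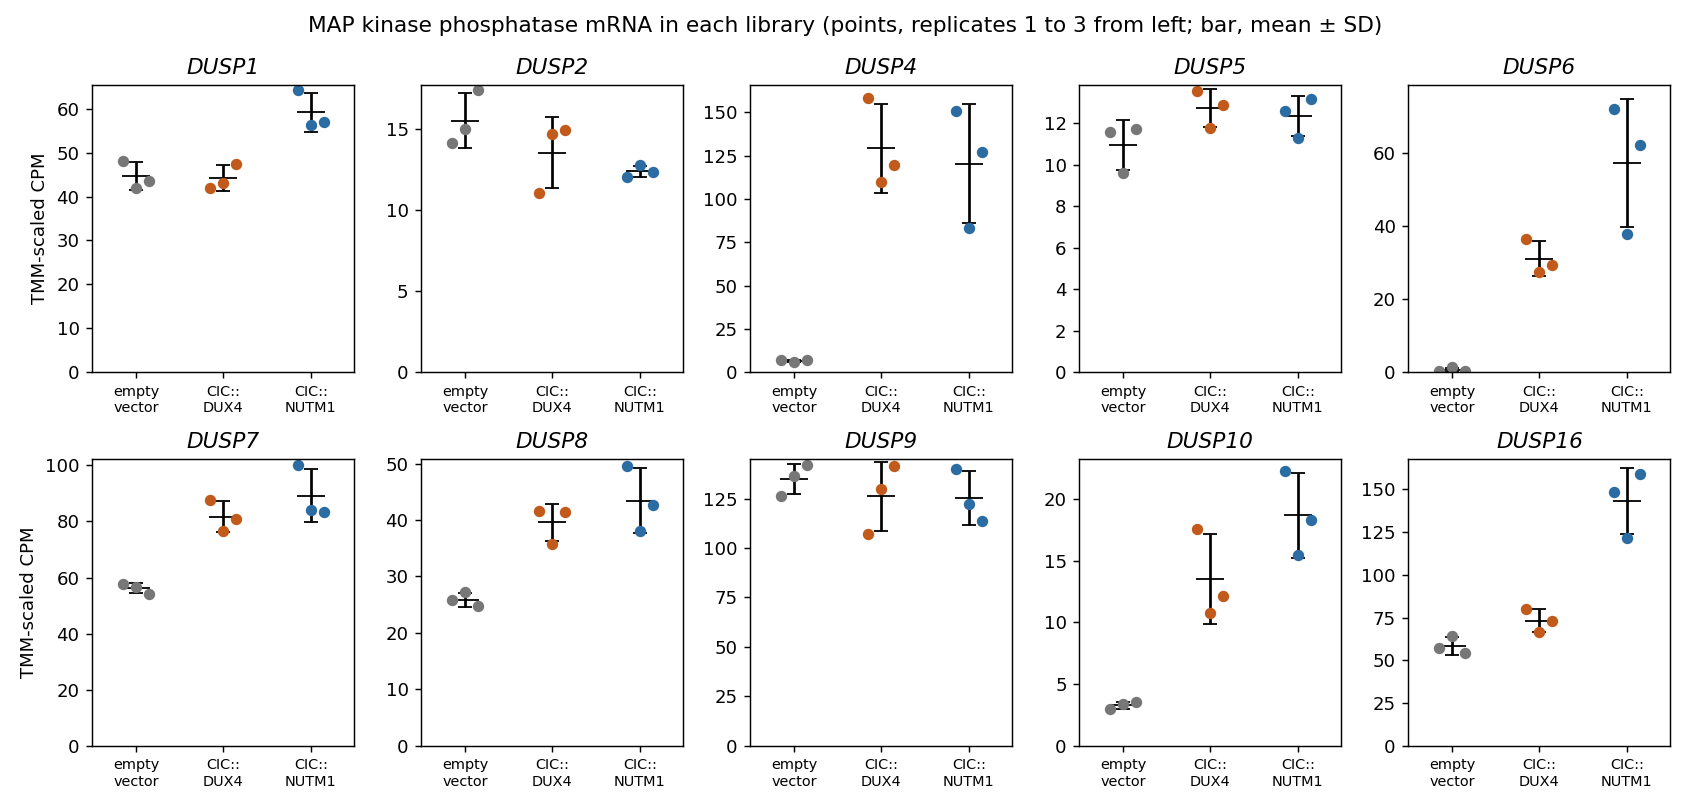
TMM-scaled CPM (y axes, linear, from 0) of the 10 phosphatases in each of the 9 libraries, with points for libraries and bars for the mean ± SD of 3. DUSP4, DUSP6 and DUSP10 sit near the bottom of their axes with empty vector and far above it with either fusion, while the points of DUSP9 overlap in all 3 groups.

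Among the nuclear enzymes, DUSP4 (ENSG00000120875, chromosome 8), which acts on ERK and JNK, had 6.70, 6.03 and 7.13 CPM in the empty-vector libraries, 158, 109.7 and 119.6 CPM with CIC::DUX4, and 151, 83.4 and 127 CPM with CIC::NUTM1. Every fusion library was above every empty-vector library, and the libraries of the 2 fusions overlapped. The log2 fold change was 4.30 ± 0.29 (SE) with CIC::DUX4 (adjusted p = 0.000102, edgeR) and 4.19 ± 0.29 with CIC::NUTM1 (adjusted p = 6.56e-05, edgeR). Between the fusions it was -0.11 ± 0.23, with a 95% interval from -0.66 to 0.45 (adjusted p = 0.877, edgeR).

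DUSP1 (ENSG00000120129, chr5:172768090-172771195), an immediate-early gene whose product acts on p38, JNK and ERK, differed between the fusions. Its levels were 48.2, 42.0 and 43.6 CPM with empty vector and 42.1, 43.1 and 47.5 CPM with CIC::DUX4, which overlapped. With CIC::NUTM1 they were 64.3, 56.3 and 57.1 CPM, above all other libraries. The log2 fold change with CIC::NUTM1 was 0.41 ± 0.09 against empty vector (adjusted p = 0.00142, edgeR) and 0.42 ± 0.09 against CIC::DUX4 (adjusted p = 0.00288, edgeR). With CIC::DUX4 against empty vector the interval ran from -0.19 to 0.17.

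DUSP2 (ENSG00000158050, chr2:96143166-96145440), best known from activated lymphoid cells, had a mean of 15.5 ± 1.71 CPM (SD, n = 3) with empty vector, 13.6 ± 2.17 with CIC::DUX4 and 12.4 ± 0.361 with CIC::NUTM1. All 3 CIC::NUTM1 libraries, at 12.1, 12.8 and 12.4 CPM, lay below the empty-vector libraries of 14.1 to 17.4 CPM, yet the log2 fold change of -0.32 ± 0.14 did not pass (adjusted p = 0.141, edgeR). DUSP5 (ENSG00000138166, chr10:110497838-110511544), which is specific for ERK, had 10.9 ± 1.19 CPM with empty vector, 12.7 ± 0.912 with CIC::DUX4 and 12.3 ± 0.961 with CIC::NUTM1. Its 95% intervals against empty vector ran from -0.07 to 0.52 and from -0.12 to 0.47 on the log2 scale. Every CIC::DUX4 library lay above every empty-vector library for DUSP5, though the closest were at 11.74 and 11.70 CPM. DUSP5 passed in none of the 3 comparisons (edgeR, DESeq2 and limma-trend), and its unadjusted edgeR p was never under 0.05.

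Among the cytoplasmic enzymes, DUSP6 (ENSG00000139318, chr12:89347232-89353271), an ERK phosphatase, had the largest fitted fold change of the 10 members against empty vector with either fusion. Its levels were 0.343, 1.29 and 0.321 CPM with empty vector, from 6, 44 and 8 reads. They were 36.4, 27.3 and 29.4 CPM with CIC::DUX4 and 72.0, 37.8 and 62.1 CPM with CIC::NUTM1. No library of 1 group overlapped with another group. The log2 fold change was 5.38 ± 0.47 with CIC::DUX4 (adjusted p = 0.000317, edgeR) and 6.25 ± 0.46 with CIC::NUTM1 (adjusted p = 6.81e-05, edgeR). Empty-vector replicate 2 held most of the control reads, and without it the values were 6.53 and 7.41. The cause of its higher DUSP6 was not tested, and levels of other genes in the same control libraries are given beside it. ETV4 had 0.401, 0.527 and 0.601 CPM in empty-vector replicates 1, 2 and 3, ETV5 had 1.14, 0.849 and 0.441 CPM, and SPRY4 had 0 reads in each. VGF had 1.49, 1.52 and 0.641 CPM.

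Between the fusions, each CIC::NUTM1 library held more DUSP6 than any CIC::DUX4 library. The log2 difference was 0.88 ± 0.30, with an interval from 0.16 to 1.59, and did not pass (adjusted p = 0.177, edgeR). Without CIC::NUTM1 replicate 2, the lowest of its group, the difference was 1.11 with an adjusted p of 0.00806 (edgeR), and over all 17 alternatives the adjusted p ran from 0.00806 to 0.425.

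DUSP7 (ENSG00000164086, chr3:52048919-52056550), a relative of DUSP6, had 57.7, 56.7 and 54.2 CPM with empty vector, 87.7, 76.6 and 80.8 CPM with CIC::DUX4, and 100.1, 84.2 and 83.5 CPM with CIC::NUTM1. Both fusion groups lay wholly above empty vector and overlapped each other. The log2 fold change was 0.54 ± 0.08 (adjusted p = 4.07e-05, edgeR) and 0.67 ± 0.08 (adjusted p = 1.13e-06, edgeR). DUSP9 (ENSG00000130829, chrX:153642492-153651326), an ERK phosphatase of placenta and kidney, overlapped in all groups at 135 ± 7.77 CPM with empty vector, 126 ± 17.3 with CIC::DUX4 and 125 ± 13.5 with CIC::NUTM1. Its intervals against empty vector, -0.29 to 0.09 and -0.30 to 0.08, allow a fall or a small rise.

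**Figure D2:**
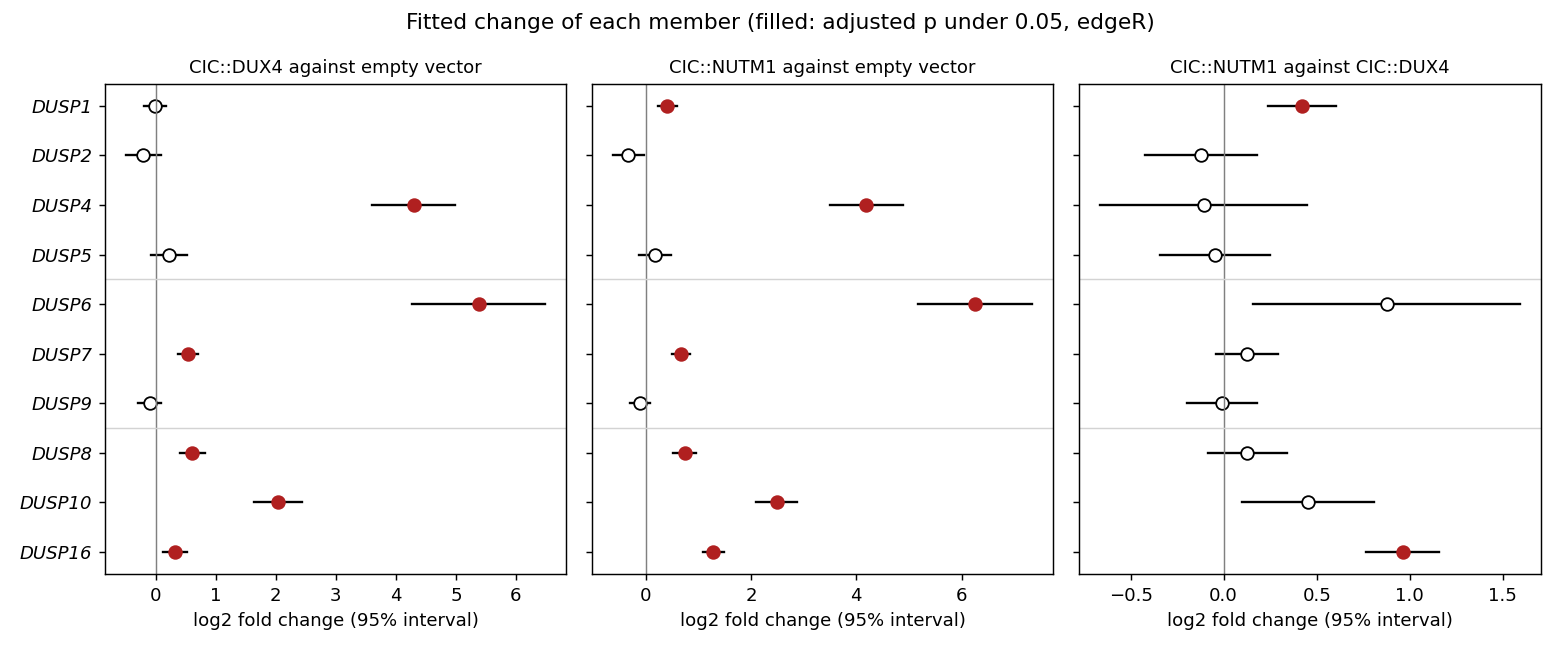
Fitted log2 fold change of each phosphatase with its 95% interval (x axes, scaled separately in each panel) in 3 comparisons, grouped by class from nuclear at the top to JNK and p38 enzymes at the bottom; filled points have an adjusted p under 0.05. DUSP4, DUSP6 and DUSP10 lie between 2.03 and 6.25 against empty vector, and DUSP1 and DUSP16 are the filled points between the fusions.

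Among the enzymes that prefer JNK and p38, DUSP10 (ENSG00000143507, chr1:221701424-221742176) had the lowest control level per kilobase of the 3 and rose with both fusions. It had 2.98, 3.397 and 3.53 CPM with empty vector, 17.6, 10.8 and 12.2 CPM with CIC::DUX4, and 22.3, 15.5 and 18.3 CPM with CIC::NUTM1. Both fusion groups lay above empty vector and overlapped each other. The log2 fold change was 2.03 ± 0.19 (adjusted p = 3.57e-08, edgeR) and 2.49 ± 0.19 (adjusted p = 7.04e-10, edgeR). Between the fusions it was 0.45 ± 0.17, which did not pass (adjusted p = 0.134, edgeR). Without CIC::DUX4 replicate 1, the highest of its group, the difference was 0.70 and passed (adjusted p = 0.0210, edgeR). Without CIC::NUTM1 replicate 1 or CIC::DUX4 replicate 2 it was 0.31 (adjusted p = 0.425 and 0.464, edgeR). Over all 18 alternatives the adjusted p ran from 0.0210 to 0.464.

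DUSP16 (ENSG00000111266, chr12:12474210-12562383), a JNK phosphatase, had the smallest adjusted p of the members between the fusions. Levels were 57.5, 64.2 and 54.1 CPM with empty vector, 80.1, 66.6 and 73.2 CPM with CIC::DUX4, and 148.5, 122 and 159 CPM with CIC::NUTM1. No group overlapped with another. The mean was 1.95 times as high with CIC::NUTM1 as with CIC::DUX4, a log2 difference of 0.96 ± 0.09 (adjusted p = 3.13e-07, edgeR). Against empty vector the log2 fold change was 1.29 ± 0.09 with CIC::NUTM1 (adjusted p = 1.17e-09, edgeR) but 0.32 ± 0.10 with CIC::DUX4 (adjusted p = 0.0371, edgeR). The latter call was lost in 5 of 18 alternatives, and in 4 of these a single library was left out (replicates 1 and 3 of empty vector and of CIC::DUX4), with adjusted p from 0.00427 to 0.241 over all 18.

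DUSP8 (ENSG00000184545, chr11:1554044-1571920), which acts on JNK and p38, had 25.8, 27.2 and 24.7 CPM with empty vector, 41.7, 35.8 and 41.4 CPM with CIC::DUX4, and 49.6, 38.1 and 42.6 CPM with CIC::NUTM1. Both fusion groups lay above empty vector, with log2 fold changes of 0.61 ± 0.10 (adjusted p = 0.000169, edgeR) and 0.74 ± 0.10 (adjusted p = 7.43e-06, edgeR). Between the fusions it overlapped, at 0.13 with an interval from -0.08 to 0.34. A pseudogene copy, DUSP8P5, had 187, 177 and 123 reads in the 3 groups, against 7185 reads of DUSP8 in all libraries, and KRTAP5-AS1 on its opposite strand had 16, 88 and 67. How reads were divided between such copies is not given in the sources used here.

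In the direct comparison of the fusions, 2 of the 10 members passed, DUSP1 and DUSP16, both higher with CIC::NUTM1, and no member was lower. Among all genes, 4.97% were higher and 1.64% lower with CIC::NUTM1. The members' median difference was 0.13 on the log2 scale against -0.0053 over all genes. At an unadjusted edgeR p under 0.05, 4 members were higher with CIC::NUTM1 and none was lower. The share of all genes at that looser threshold is not given here, so this count cannot be set against the 4.97%.

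The order of the enzymes was set by CPM per kilobase of exon. With empty vector DUSP9 led at 48.6 CPM per kilobase, followed by DUSP1 at 22.1, DUSP16 at 10.2 and DUSP7 at 9.95, which overlapped. DUSP10 at 1.13, DUSP4 at 0.912 and DUSP6 at 0.140 were lowest. With CIC::DUX4, DUSP9 still led at 45.4, DUSP4 had moved to 17.8 and overlapped with DUSP1 at 21.9 and DUSP7 at 14.5, and DUSP5 at 4.86 and DUSP10 at 4.64 were lowest and overlapped. With CIC::NUTM1, DUSP16 at 25.01 followed DUSP9 at 45.1 and DUSP1 at 29.3, DUSP6 reached 12.4 and overlapped with DUSP7 and DUSP8, and DUSP5 was lowest at 4.72. The order below DUSP9 depended on the length used. With the longest transcript in place of all exons, DUSP7 took 13.2% of the family total with empty vector, above DUSP16 at 8.76%. With CIC::DUX4 the shares were then 14.4% for DUSP7, 13.8% for DUSP4 and 12.9% for DUSP1, the reverse of the order by all exons.

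The summed level of the 10 phosphatases was 111 ± 1.92 CPM per kilobase with empty vector, 144 ± 6.17 with CIC::DUX4 and 171 ± 19.8 with CIC::NUTM1 (SD, n = 3). DUSP4 gave 50.7% of the net increase with CIC::DUX4, DUSP6 19.7% and DUSP7 13.5%. With CIC::NUTM1 the net increase was spread over DUSP4 (26.0%), DUSP16 (24.5%), DUSP6 (20.3%), DUSP1 (12.01%) and DUSP7 (9.69%), among others. These parts were computed with all exons only, and their order can depend on the length used. The share of DUSP9 in the family total was 43.8 ± 1.80% with empty vector, 31.5 ± 4.14% with CIC::DUX4 and 26.4 ± 2.42% with CIC::NUTM1, while its own level was not shown to change. The nuclear enzymes together took 31.8 ± 1.81%, 35.8 ± 1.08% and 33.3 ± 0.353% in the same order of groups, and the cytoplasmic enzymes 52.9 ± 1.45%, 46.2 ± 2.86% and 42.8 ± 1.83%. The JNK and p38 enzymes took 15.3 ± 1.16%, 18.0 ± 1.80% and 23.9 ± 1.48%.

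**Figure D3:**
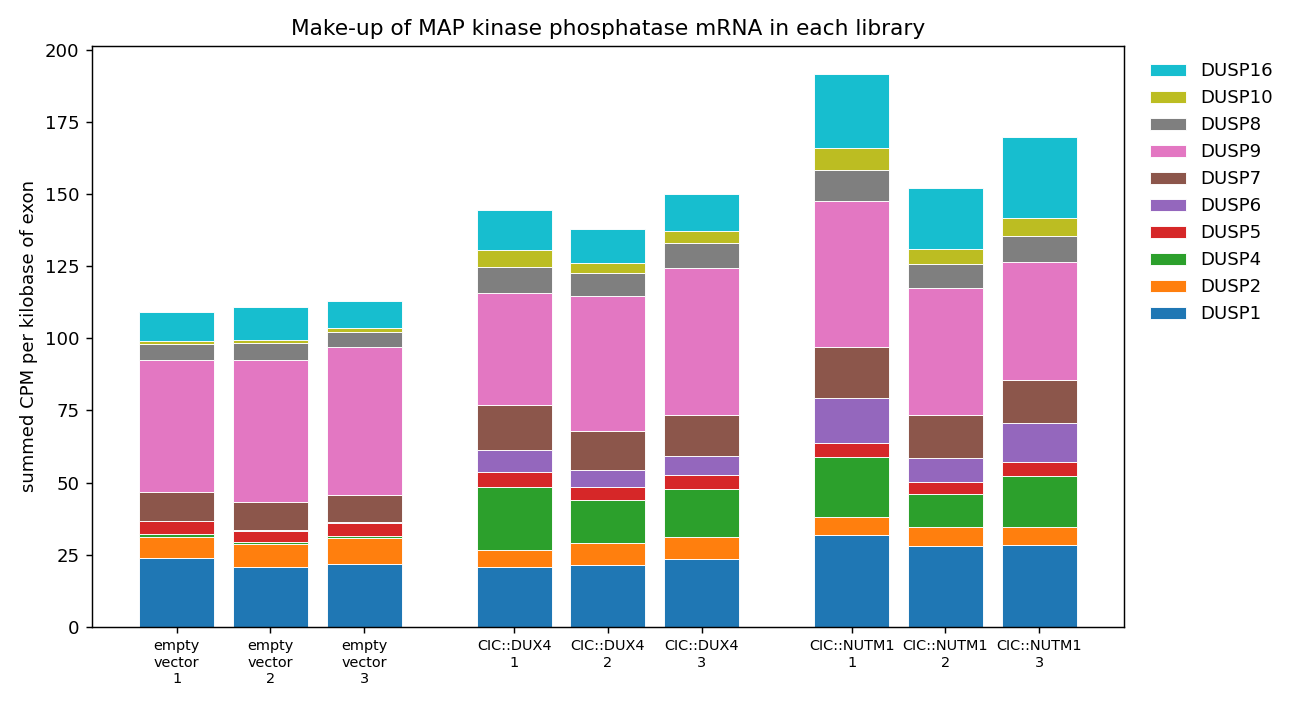
Summed CPM per kilobase of exon (y axis, from 0) of the 10 phosphatases in each of the 9 libraries, with stacked colours for the genes. DUSP9 is a large block in every bar, and the blocks of DUSP4, DUSP6 and DUSP16 are thicker in the fusion libraries.

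A gene on the opposite strand of DUSP6, ENSG00000274021 (chr12:89351015-89353271, plus strand, GENCODE 29), is 1 exon of 2257 bases, of which 1875 lie in DUSP6 exons and 382 in its introns. It covers the RefSeq start of DUSP6 and both octamers. It had 0 reads in the 3 empty-vector libraries, 1668, 867 and 769 reads with CIC::DUX4, and 75, 45 and 75 reads with CIC::NUTM1. Against 100 reads of DUSP6 this came to 175, 152 and 154 with CIC::DUX4 and to 6.25, 4.55 and 6.26 with CIC::NUTM1. DUSP6 has 4632 exonic bases against 2257, and these ratios were not corrected for length. By reads, the opposite-strand gene outnumbered DUSP6 in every CIC::DUX4 library. In every CIC::NUTM1 library it was a small fraction of DUSP6. Its mean CPM was 50.1 ± 11.8 in the CIC::DUX4 libraries, against 3.37 ± 1.46 in those of CIC::NUTM1 (SD, n = 3). The fitted fold was 15.5 in favour of CIC::DUX4 (log2 difference -3.95 ± 0.33 for CIC::NUTM1 against CIC::DUX4, adjusted p = 0.000322, edgeR). Whether counting used strand is not given in the sources used here. Of 225 genes wholly in opposite-strand exons of a gene with at least 9000 reads, 26 had 0 reads and 85 had at least 100. Their median read density per base was 3.66% of the outer gene, and 43 were above 10% of it. Counting that ignored strand and dropped shared reads would leave such genes at 0 reads in this annotation. Here 199 of the 225 had at least 1 read. The annotation used for counting is not given, and use of strand was not tested. ENSG00000274021 is not such a gene, as 382 of its bases lie in DUSP6 introns. How many reads of DUSP6 were counted for ENSG00000274021, or the reverse, was not tested.

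**Figure D4:**
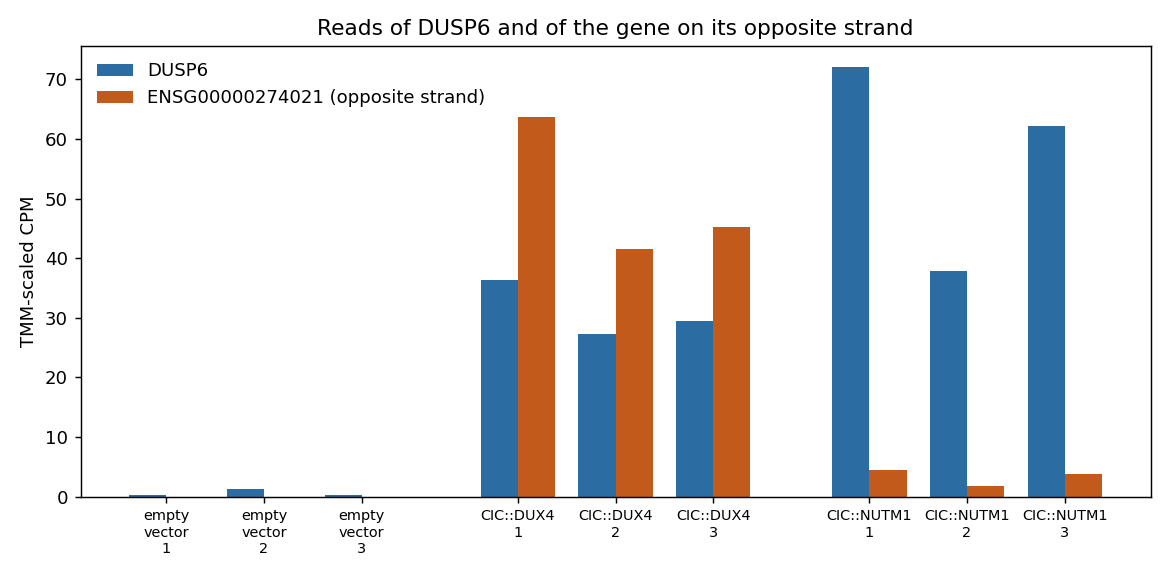
TMM-scaled CPM (y axis, from 0, not corrected for gene length) of DUSP6 and of ENSG00000274021 on its opposite strand in each of the 9 libraries. The opposite-strand gene exceeds DUSP6 in the 3 CIC::DUX4 libraries and lies under 5 CPM in the 3 CIC::NUTM1 libraries.

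The MAP kinases that these enzymes act on were tested as a list of 10. Of these, MAPK14 (p38 alpha) rose with CIC::DUX4 by 0.36 on the log2 scale, and MAPK7 (0.37) and MAPK14 (0.22) rose with CIC::NUTM1. MAPK3 (ERK1) was 0.27 higher with CIC::NUTM1 in the direct comparison. The median of the 10 kinases was -0.06 and 0.13 against empty vector. Of 13 atypical dual-specificity phosphatases tested, STYXL1 rose with CIC::DUX4 (0.46), and DUSP12 rose (0.39) and DUSP3 fell (-0.23) with CIC::NUTM1. STYX, a pseudophosphatase, was 0.39 higher in CIC::NUTM1 cells in the direct comparison, and the median of the 13 was -0.09 and 0.10 against empty vector. Of 9 other phosphatases acting on MAP kinases that were tested, PTPN5 (1.68) and PTPRR (3.75), tyrosine phosphatases of ERK, rose with CIC::DUX4. With CIC::NUTM1, PTPN5 (2.05), PTPRR (3.82) and PPM1D (0.58), a phosphatase induced by p53, rose. PTPRR was near the floor, at 0.0763 CPM with empty vector, 0.816 with CIC::DUX4 and 0.883 with CIC::NUTM1. It had at most 25 reads in any library. PTPN5 was also low, at 0.628, 2.05 and 2.66 CPM in the same order, with at most 64 reads. PPM1D was also 0.48 higher in the direct comparison, and the median of the 9 was 0.10 and 0.16 against empty vector. DUSP13A and DUSP13B were not matched in the count table. Among all genes tested, the share called higher than in controls was 6.96% for CIC::DUX4 (edgeR, adjusted p under 0.05). For CIC::NUTM1 that share was 11.5%, and 3.83% were lower. In the same order of fusions, 1 and 2 of the 10 kinases rose. Among the 13 atypical enzymes 1 rose each time, and of the 9 other phosphatases 2 and 3 rose. In the direct comparison, 4.97% of all genes were higher. The lists were not tested against all genes, so these counts are a description only.

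Of 17 ERK pathway output and feedback genes, 14 rose with CIC::DUX4 and 16 with CIC::NUTM1, with none lower. Their median log2 fold change was 1.76 and 2.696. Of all genes tested, 6.96% rose with CIC::DUX4 and 11.5% with CIC::NUTM1 (edgeR, adjusted p under 0.05). In the direct comparison 8 of the 17 were higher with CIC::NUTM1 and none lower, with a median of 0.55. Of all genes, 4.97% were higher there. SPRED1, SPRED2 and SPRED3, inhibitors of RAS signalling, rose with both fusions. ETV4, an ETS factor, went from 0.510 CPM with empty vector to 193 with CIC::DUX4 and 207 with CIC::NUTM1. IER3 did not pass against empty vector with either fusion, with log2 values of -0.52 and -0.36. With CIC::DUX4, EGR1 (-0.03) and SPRY1 (-0.13) did not pass either. Activity of ERK was not measured here. The lists of this paragraph were chosen with earlier results of these data known, so their counts are a description only. Of 8 stress-linked genes, GADD45A (0.94) and ATF3 (0.84) rose with CIC::DUX4 and 5 rose with CIC::NUTM1, GADD45A, GADD45B, ATF3, KLF6 and MDM2. The list's median was -0.02 and 0.28, and GADD45B and MDM2 were higher with CIC::NUTM1 in the direct comparison.

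For each of the 7 called members, the 3 genes most alike in pattern were named by the smallest root mean square difference of centred log2 CPM over 9 libraries, among 14762 genes with a mean of at least 1 CPM. For DUSP4 these were CDH4 (0.184), PCDH15 (0.227) and SPRED3 (0.233). For DUSP10 they were SPRED1 (0.144), KITLG (0.157) and SPRED2 (0.160). For DUSP16 they were CDO1 (0.0953), CHD2 (0.103) and PRDM2 (0.105). The nearest to DUSP6 were ENSG00000224945 (0.426), SLC1A6 (0.464) and AGR2 (0.537). The difference is not scaled to the size of a member's change, so its values cannot be compared between members. The nearest to DUSP1 was TLE3 (0.0619), to DUSP7 RNF44 (0.0570) and to DUSP8 PFKP (0.0926).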

How the data were processed

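PolyA-selected, strand-directional libraries of 293T cells were sequenced, 3 for each plasmid, from 300000 cells per condition per the labels' protocols. Per Ensembl gene, unnormalized read counts were deposited by the authors, with a second table of log2 CPM for 15811 genes, which matched log2 CPM computed here (Pearson 1). The submitters' processing notes name STAR 2.7.10b, R 4.2.2, edgeR 3.40.2 and GRCh38, with no role. The counting program, the annotation and the use of strand are not given in the sources used here.

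Symbols came from a gene-name table that matched 62622 of 62700 IDs, and positions, exon lengths and overlaps from GENCODE 29 (GRCh38). Genes were kept by filterByExpr (17576 of 34765 with at least 1 count), scaled by TMM and fitted with edgeR 4.0.16 in R 4.3.3 as 1 mean per group over all 9 libraries. The biological coefficient of variation was 10.1%. A gene was called at a Benjamini-Hochberg adjusted p under 0.05 over all genes tested. The SE is the log2 fold change divided by the square root of the quasi-likelihood F, and intervals are 95%. A level is the mean TMM-scaled CPM of a group with its SD (3 libraries). The members were ordered by level per kilobase of GENCODE exon. DUSP6 and DUSP8 were set beside opposite-strand or copied genes by reads or CPM, without correction for length.

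Alternatives were other scalings, filters, DESeq2 1.42.0, limma-trend (limma 3.58.1) on the authors' log2 CPM, a fit limited to 2 groups, a block for replicate number, and each library left out in turn. The code was tested on simulated data. All 10 members are named, as are called genes of the lists and the 3 genes most alike in pattern to each called member. The members and the lists were chosen with earlier results of these data known. Promoter windows came from RefSeq (GRCh38.p14). No protein sequences were used here, so the planned comparison of protein sequences was not run. CIC, NUTM1 and DUX4 transcripts were not analysed here. Figures were drawn with matplotlib 3.10.9.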

Additional observations from a re-analysis of the deposited data

How the results depend on the processing

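Of 537 values of single members recomputed under alternatives, 518 kept their direction and their side of the threshold, 5 lost a call, 2 gained one and 12 changed sign. The 5 losses all concern DUSP16 with CIC::DUX4: at least 10 counts in every library (log2 0.32, adjusted p = 0.0533, edgeR), and the fits without empty-vector replicate 1 or 3 or CIC::DUX4 replicate 1 or 3 (adjusted p 0.0828 to 0.241, edgeR). That filter also leaves DUSP6 untested, so 4 members were called with CIC::DUX4 and 6 with CIC::NUTM1. The gains are DUSP6 and DUSP10 between the fusions, given above.

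No changed sign passed the test, and each came from leaving 1 library out. Over the fits with 1 library left out, the log2 fold change with CIC::DUX4 ran from -0.0659 to 0.0434 for DUSP1 and from -0.191 to 0.0045 for DUSP9. Between the fusions it ran from -0.303 to 0.103 for DUSP4, from -0.110 to 0.0171 for DUSP5 and from -0.114 to 0.0798 for DUSP9.

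Counts over all genes moved more. With CIC::DUX4, genes higher (1224) were 774 when at least 10 counts were required in every library and 805 to 1330 when 1 library was left out (805 without CIC::DUX4 replicate 1). Genes lower (224) were 380 without a filter, 407 in a fit of only the 2 groups and 60 to 312 with 1 library left out (60 without CIC::DUX4 replicate 1, 75 and 137 without empty-vector replicates 3 and 2). With CIC::NUTM1, genes lower (673) were 1138 under library totals, 1124 under upper quartile factors and 278 to 977 with 1 library left out (278, 399 and 447 without empty-vector replicates 3, 2 and 1, 444 without CIC::NUTM1 replicate 1). Between the fusions, genes higher (874) were 516 to 940 with 1 library left out (516 without CIC::NUTM1 replicate 3). Genes lower (288) were 437 under library totals and 156 to 324 with 1 library left out (156 and 181 without CIC::DUX4 replicates 1 and 2, 174 without CIC::NUTM1 replicate 3). Library totals gave splits of 1783 higher and 1138 lower with CIC::NUTM1, and of 695 and 437 between the fusions. The cause was not tested.

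With the longest transcript as the length, the family total became 127, 169 and 198 CPM per kilobase for empty vector, CIC::DUX4 and CIC::NUTM1. The nuclear share became 28.9%, 34.4% and 31.9% and the cytoplasmic share 56.8%, 49.2% and 46.0%, while DUSP4 in the controls became 0.939% and the JNK and p38 share with CIC::NUTM1 22.1%.

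The replicate numbers were not shown to pair the samples: deviations of same-numbered libraries correlated at -0.0308 to 0.0753. With the replicate block no member's call changed (DUSP16 with CIC::DUX4 adjusted p = 0.0469, edgeR), and genes higher and lower were 1222 and 250, 2012 and 727, and 894 and 307 in the 3 comparisons.

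The control level of DUSP6 rests on 6, 44 and 8 reads. Without empty-vector replicate 2, the deepest library, where DUSP6 had 1.29 CPM against 0.343 and 0.321 in the others, its fold changes were 2.22 times as large. The cause was not tested.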

Other observations

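Protein-coding neighbours of the members were examined for levels around them, with the nearest tested gene on each side. Next to DUSP6, POC1B, a centriole protein gene 66.4 kb away, rose from 12.2 CPM with empty vector to 20.9 with CIC::DUX4 (log2 0.78, adjusted p = 0.000322, edgeR) and 26.9 with CIC::NUTM1 (log2 1.13, adjusted p = 9.55e-07, edgeR). KITLG, the ligand of the receptor KIT, lies 766 kb away on the other side and rose by 1.78 and 2.34 on the log2 scale. Beside DUSP16, BORCS5 (4.52 kb away) rose with CIC::NUTM1 by 0.61 (adjusted p = 0.00149, edgeR) and had 0.27 with CIC::DUX4 (adjusted p = 0.277, edgeR). CREBL2, 49.4 kb away on the other side, rose with CIC::NUTM1 by 0.50 (adjusted p = 0.00507, edgeR) and had 0.19 with CIC::DUX4 (adjusted p = 0.440, edgeR). Beside DUSP8, IFITM10 (160 kb away) was listed at 0 CPM in the controls, at 0.208 for CIC::DUX4 and at 1.61 for CIC::NUTM1. It passed with both fusions (adjusted p = 0.0239 and 2.10e-05, edgeR), near the floor. MOB2 rose with CIC::NUTM1 by 0.43 (adjusted p = 0.0112, edgeR) and had 0.29 with CIC::DUX4 (adjusted p = 0.151, edgeR). The nearest tested neighbours of DUSP1, DUSP2, DUSP4, DUSP5, DUSP7, DUSP9 and DUSP10 were not called against empty vector. Of all genes tested, 6.96% rose with CIC::DUX4 and 11.5% with CIC::NUTM1 at this threshold. A share over the neighbours was not computed, so the genes named here are a description only.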
